A study of Bos taurus with 2 samples.

Results

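The centromere of the cattle Y chromosome is a CpG-dense tandem array, and its CpG methylation is described here by position within the repeat unit. The array was taken as the interval from 14125001 to 16645000 on the Y (ARS-UCD2.0, positions starting at the short-arm telomere), and its members were all CpG sites in it with at least 10 PacBio reads. It held 161642 CpGs of the 974748 on the chromosome that passed this minimum. No CpG of the interval had fewer reads, so the minimum left none out. Lung DNA was sequenced on PacBio HiFi and on Oxford Nanopore (ONT), each from 1 library, and the study's methods give the source of its cattle assembly as the fetus of a Wagyu sire and a Charolais dam. The platforms are the only groups, and with 1 library in each no test between samples was possible. The 2 strands of a CpG were combined on PacBio and given as separate rows on ONT.

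Centromeres of mammals are usually built of satellite DNA, short monomers that repeat head to tail and are often grouped into higher-order units that are themselves repeated. On part of such an array the histone variant CENP-A replaces histone H3 and the kinetochore assembles, and in several species this stretch is less methylated than the rest of the satellite. Cytosine methylation at CpG sites of satellite DNA is set and kept by the DNA methyltransferases and is generally high in somatic tissue.

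Methylation of the array was high on PacBio, with a mean level of 80.8% over CpGs (SD over CpGs 17.4), a median of 88.0% and quartiles of 73.7% and 93.3%. The distribution was skewed, with a long tail towards low levels. Of the 161642 CpGs, 69959 (43.3%) stood at 90% or more, against 25.6% of all CpGs of the chromosome. Low sites, with a level below 50%, numbered 12324 (7.62%), against 25.4% of the chromosome. Sites below 20% numbered 1565 (0.968%), against 8.53%. The megabase next to the array on the short arm had 41.4% of its 48080 CpGs at 90% or more, 8.58% low and 1.70% below 20%. On the long-arm side 13.7% of 15771 CpGs stood at 90% or more, 33.3% were low and 10.5% below 20%. The median depth in the array was 24 reads per CpG, with a 5th percentile of 16 and a 95th percentile of 33. At such depth the level of a single CpG is imprecise. The lowest CpG, at 15446058, had a level of 3.9% and an estimated count of 0 modified reads of 19. Were such counts calls of single reads, the Wilson 95% interval would allow a share of up to 16.8% from counting error alone. No gene of the ARS-UCD2.0 gene table overlapped the interval. The nearest were LOC132344621, a protein-coding gene that ended 11115 bp before it, and LOC132344429, a pseudogene that began 42397 bp after it.

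The ONT levels were lower and differed between the strand rows. The mean of both rows was 55.8%, the row of the plus strand had a mean of 46.8% and the row of the minus strand 64.8%. The mean difference, minus row less plus row, was 18.0 points, with a median of 16.9 and 5th and 95th percentiles of -25.3 and 63.5. The minus row was thus the higher one at most CpGs of the array, but not at every one. It was higher at 74.5% of the CpGs, lower at 24.8% and equal at 0.681%, against 57.3%, 41.9% and 0.860% of the chromosome. In the short-arm megabase it was higher at 74.4%, nearly as in the array. A lead of the minus row of at least 20 points was found at 73548 CpGs (45.5%), against 20.8% of the chromosome. The opposite lead was found at 12006 CpGs (7.43%), against 9.95%. The short-arm megabase had 42.6% and 6.15% in these classes, and the long-arm megabase 19.8% and 11.6%. The ONT values come without read counts, so the depth behind these rows is unknown, and a row at 0 may be a measured level or a missing value. The plus row was 0 at 2930 CpGs of the array (1.81%) and the minus row at 61 (0.0377%), against 2.53% and 1.22% of the chromosome.

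**Figure D1:**
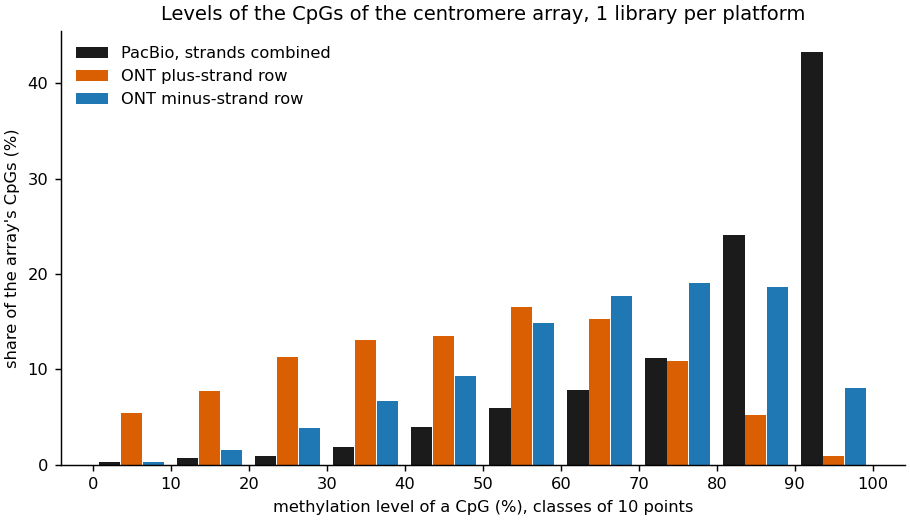
Share of the 161642 CpGs of the array (y axis, percent) in classes of 10 points of methylation level (x axis, percent), for PacBio and for each ONT strand row. The class of 90% and above holds 43.3% of the CpGs on PacBio, 8.04% on the ONT minus row and 0.917% on the ONT plus row.

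The repeat unit was found from the distances between CpGs alone. Between 1000 and 6000 bp, the distance with the most CpG pairs was 1684 bp, with 71513 pairs, or 6.92 times the median over all distances up to 20 kb. Its multiples stood out too, and 61358 pairs were still 16840 bp apart. A second series of peaks began at 3740 bp with 48555 pairs and went on at 7480 bp with 39398. Among distances from 20 bp to below 500 bp the most frequent was 73 bp, with 23584 pairs. The array was therefore divided into windows of 20 kb by the share of CpGs that had another CpG exactly 1684 bp away on either side, a step chosen after these distances had been seen. In 45 windows this share was at least 80%, and they formed 2 blocks, from 14125001 to 14585000 and from 14705001 to 15145000, called short repeat here. In the other 81 windows the share was at most 51.4%, and these formed a block of 120 kb between the first 2 and a block of 1500 kb from 15145001 to the long-arm end, called long repeat here.

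The short repeat thus occupied 900 kb of the 2.52 Mb and the long repeat 1620 kb, so the period of 1684 bp describes only the smaller share of the array. The short repeat was denser in CpGs, with 74.1 per kb against 58.6 per kb. Its PacBio level was 82.9% and that of the long repeat 79.4%. Low sites made up 5.42% of the CpGs of the short repeat and 9.17% of those of the long repeat, and sites below 20% made up 0.337% and 1.41%. PacBio means were 82.6% and 83.3% in the short-repeat blocks and 78.4% and 79.4% in the long-repeat blocks. The ONT strand difference was 20.02 and 23.10 points in the former and 16.9 and 15.3 points in the latter. The long-repeat blocks also differed in the share of CpGs with a partner at 3740 bp, 35.5% and 59.2%, and in median depth, 31 and 25 reads. Windows of the types overlapped, since the 20 kb means ran from 76.0% to 85.2% in the short repeat and from 74.6% to 83.9% in the long repeat. On ONT the minus row was 69.1% in the short and 61.7% in the long repeat, while the plus row was 47.6% and 46.3%. The strand difference was therefore larger in the short repeat, at 21.5 points against 15.4. Median depth was 22 reads in the short repeat and 25 in the long repeat, and the part of depth in these differences was not tested.

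**Figure D2:**
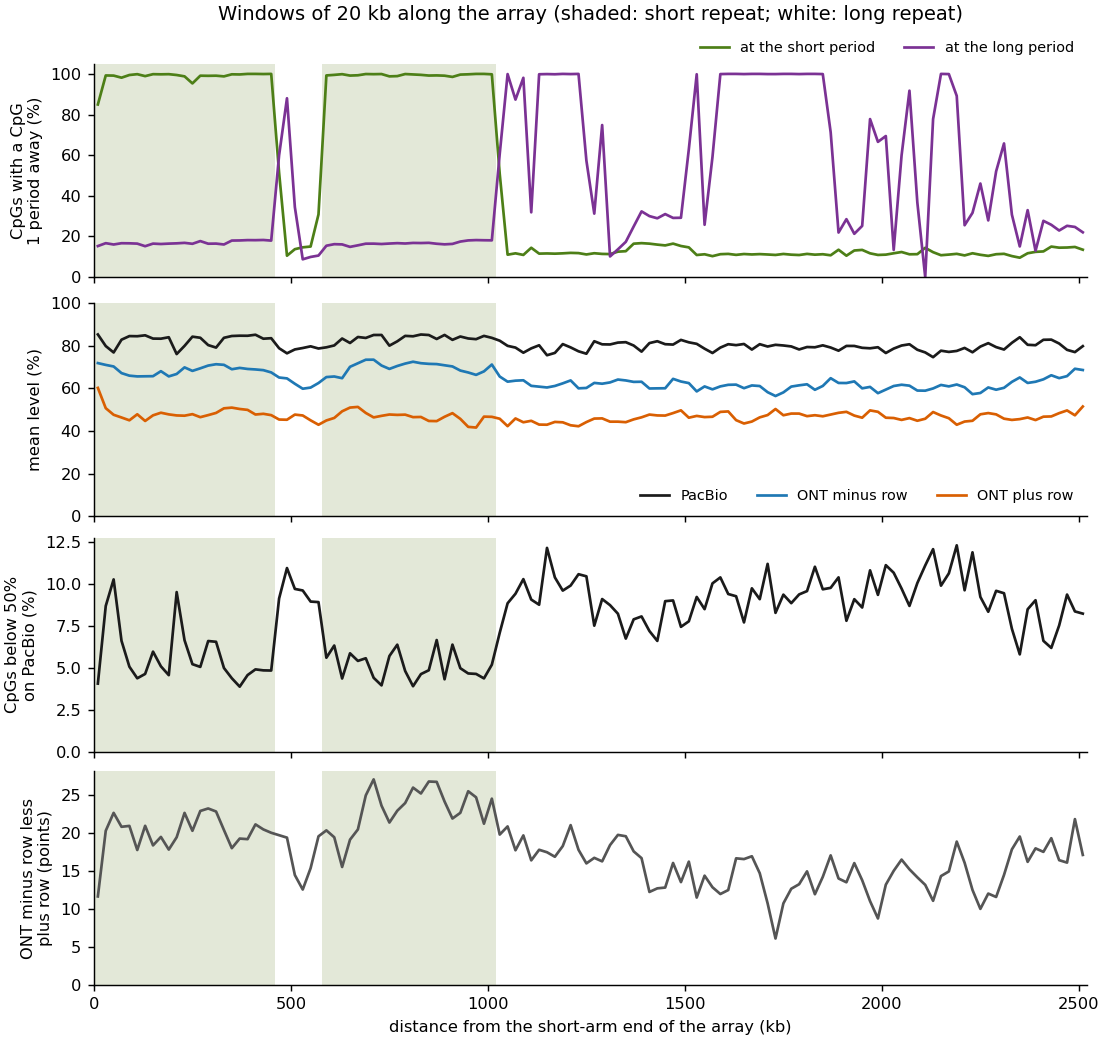
Windows of 20 kb along the array by distance from its short-arm end (x axis, kb), shaded where the short repeat lies. From the top, the share of CpGs with another CpG exactly 1 short or long period away, the mean level on PacBio and on each ONT row, the share of CpGs below 50% on PacBio, and the ONT strand difference. Low sites made up 3.87% to 10.3% of a window in the short repeat and 5.80% to 12.3% in the long repeat.

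Every CpG was then placed at a position in its repeat unit by sliding a template of CpG positions along the array. The short-repeat blocks are 534 copies long. Of their 66703 CpGs, 98.9% fell on 125 positions that carried a CpG in at least 50% of the copies, with 16 changes of offset along 900 kb. The long-repeat blocks are as long as 433 units of 3740 bp, which is a length and not a count of copies. Position 121 was found 264 times and position 608 was found 562 times. Of the 94939 CpGs of the long repeat, 96.7% fell on 215 such positions, with 885 changes of offset. The regularity of the short repeat is part of its definition, since its windows were chosen for partners at exactly 1684 bp. In 29 windows of the long repeat at least 87.4% of the CpGs had a partner exactly 3740 bp away. In the other 52 windows of the long repeat that share ran from 0 to 77.8%. Positions are counted from 1 at the first common CpG after the longest stretch without one, which is 59 bp in the short and 74 bp in the long repeat.

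Position in the repeat accounted for most of the variation in level between CpGs. In the short repeat 60.4% of the variance of the PacBio level lay between positions, and in the long repeat 68.5%. With levels taken from the estimated counts, the share between positions was 59.4% in the short repeat. Binomial counting error at the measured depth, with these counts treated as calls of single reads, came to 18.0% and the remainder to 22.6%. In the long repeat these shares were 67.7%, 13.3% and 19.0%. The share between positions was 77.8% and 73.1% for the ONT mean of rows, and 67.9% and 67.4% for the ONT strand difference. Copies of 1 library share its reads and base calls and are not replicates, so these shares describe the pattern along the array.

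In the short repeat most positions were highly methylated in nearly every copy. The median PacBio level over copies was at least 90% at 62 of the 125 positions, from 80% to 90% at 31 and from 50% to 80% at 29. It was below 50% at 3 positions. The lowest was position 1, with a median of 32.0% (quartiles 22.0% and 39.8%, 534 copies) and a low level in 94.4% of the copies. Both ONT rows were low there as well, at 14.8% on the plus and 23.5% on the minus row. Position 889 had a median of 43.6% and was low in 74.6% of 536 copies, with ONT rows of 39.1% and 30.8%. Position 1109 had a median of 46.8% and was low in 57.6% of 535 copies, with ONT rows of 52.9% and 51.9%. Positions 1471 and 690 came next, with medians of 52.8% and 54.7% and low levels in 37.7% and 39.0% of the copies. At the other end stood positions 1233, 1242 and 1235, with medians of 96.0%, 96.0% and 96.2% and no low copy among 534, 533 and 529. These 3 positions lie within 10 bp of each other, and single copies of them ranged from 64.3% to 97.9%. At 53 positions no copy was low.

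**Figure D3:**
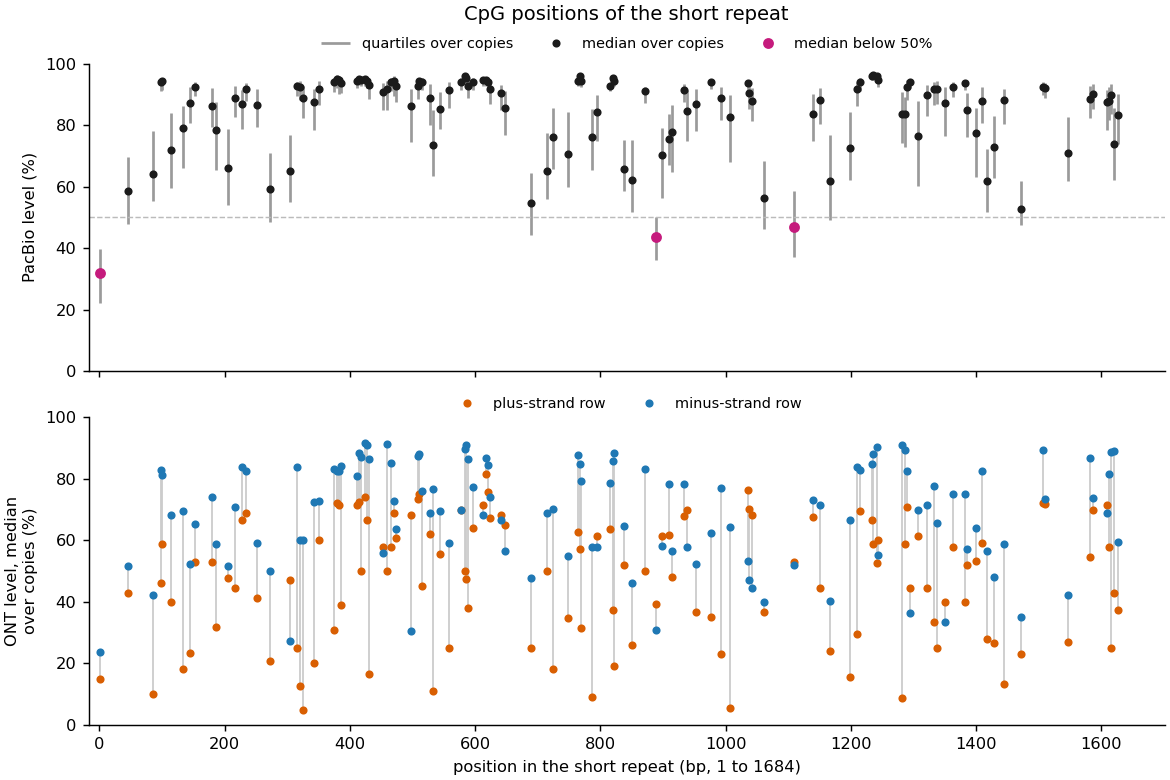
CpG positions of the short repeat (x axis, bp within the unit). The upper panel gives the PacBio level (percent) as the median over copies with a bar from the first to the third quartile, and the lower panel the median ONT level (percent) of each strand row, joined by a line. The 3 positions with a PacBio median below 50% are 1, 889 and 1109.

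The long repeat held more low positions, and lower ones. The median PacBio level was below 50% at 15 of its 215 positions and below 20% at 2 of them. Position 3041 had the lowest median of the array, 13.6% (quartiles 9.1% and 25.5%, 377 copies), and was low in 96.6% of the copies. Its ONT rows differed, at 10% on the plus and 40.9% on the minus row. Position 3033, only 8 bp away, had a median of 28.6% and ONT rows of 23.3% and 20.6%. Position 2874 had a median of 18.6% (quartiles 11.9% and 35.6%) and was low in 81.4% of 377 copies, and its copies ranged from 5.6% to 96.2%. Position 80 had a median of 23.8% and was low in 97.4% of 387 copies, the largest such share of these 5 positions. Position 1162 had a median of 30.9% and was low in 88.8% of 403 copies, yet its ONT rows stood at 53.6% and 53.3%. Platform and position thus did not always give the same picture of a low site. Across positions, Pearson's r between the PacBio and the ONT medians was 0.646 in the short repeat (Spearman's rho 0.643, n = 125) and 0.598 in the long repeat (rho 0.548, n = 215). The highest medians of the long repeat were at positions 95, 3127 and 3121, at 95.5%, 95.5% and 95.6%.

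**Figure D4:**
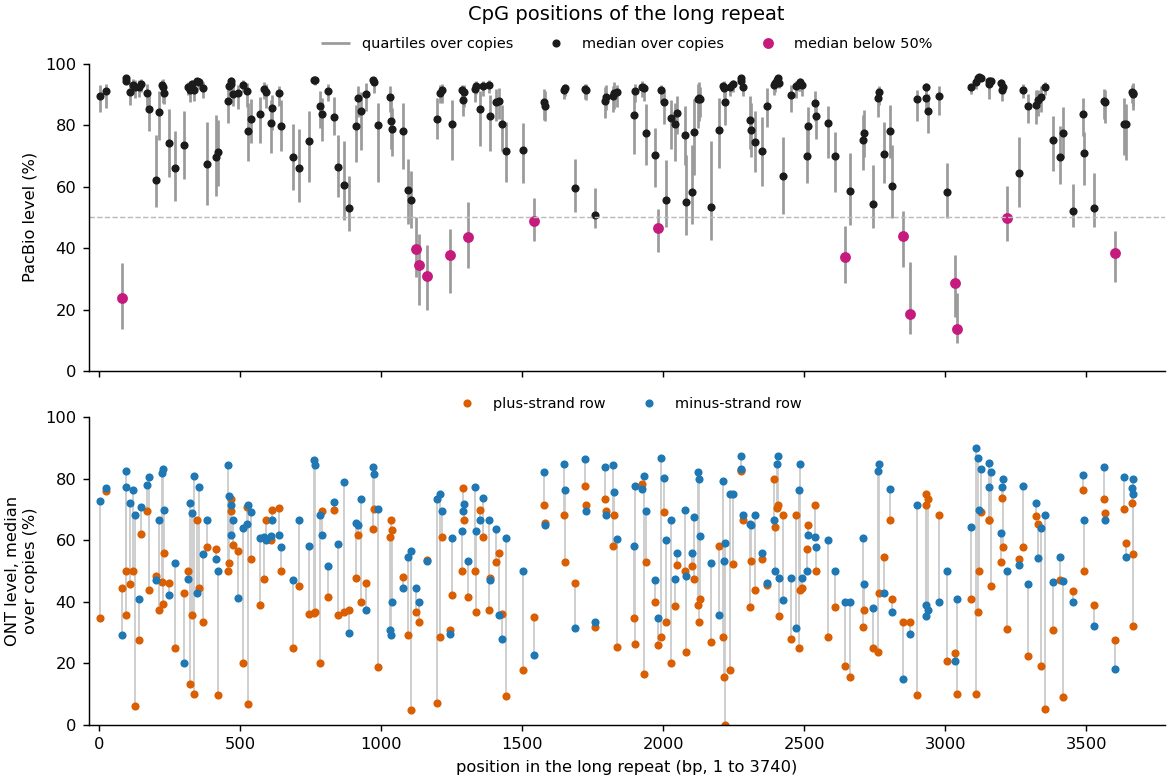
CpG positions of the long repeat (x axis, bp within the unit), drawn as for the short repeat with the PacBio level (percent) above and the ONT rows (percent) below. The 15 positions with a PacBio median below 50% include 3041 at 13.6%, 2874 at 18.6% and 80 at 23.8%.

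Low sites were found at the low positions and elsewhere. In the short repeat the 3 low positions held 2.41% of the CpGs at common positions and 33.5% of all 3614 low sites, and the other 2402 low sites (66.5%) lay outside them. In the long repeat the 15 low positions held 6.62% of the CpGs at common positions and 56.1% of all 8710 low sites, and 3828 (43.9%) lay outside. These positions were chosen for a low median, which fixes much of their share of low sites. The distance from a low position to the nearest common CpG varied. In the short repeat it was 10 to 44 bp for the 3 low positions, with a median of 30 bp, and 2 to 40 bp for the other positions, with a median of 5 bp. Position 889, the one at 10 bp, had 4 common CpGs within 30 bp, which is also the median of the other positions. In the long repeat the medians were 14 bp and 7 bp, and the ranges, 7 to 35 bp and 2 to 36 bp, overlapped almost wholly. Over all positions the PacBio median was lower where the nearest CpG was farther, with r of -0.742 in the short repeat (rho -0.758, n = 125) and -0.521 in the long repeat (rho -0.574, n = 215). The ONT medians, which come from other reads and another caller, went the same way, with r of -0.601 and -0.539. These are correlations across positions of 1 library per platform, and how far CpG spacing enters either caller was not tested.

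The recurrence of single low sites was then read directly from pairs of CpGs. Of 4112 low CpGs with another CpG exactly 1684 bp towards the long arm, 41.0% had a low partner, against 3.98% of 67401 CpGs that were not low. Both shares depended on the level called low. They were 21.9% of 613 and 1.10% of the others for levels below 30%, and 14.2% of 246 and 0.550% for levels below 20%. At 50%, the excess hardly depended on the number of units between the partners. The share was 39.3% at 2 units, 36.6% at 5 units and 36.6% at 10 units. At 3740 bp 53.6% of 4580 low CpGs had a low partner, against 4.52% of the others. Within the blocks of the matching repeat the shares were 42.7% against 3.32% for the short and 57.7% against 4.44% for the long repeat. At 648 other distances between 1000 and 6000 bp, all more than 50 bp from a multiple of either period, the median share of low partners was 6.06% for low CpGs and 6.90% for the others. The 5th and 95th percentiles of the former over these distances were 1.80% and 19.9%.

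The profile over positions was compared between separate stretches of the array. Between the 2 short-repeat blocks, r over the 125 position medians was 0.996 for the PacBio level and 0.995 for the ONT strand difference. A stretch of 180 kb that begins in the first block recurred 559800 bp further along, with 98.9% of its CpGs matched. Its part in the likeness of the blocks was not tested. The PacBio medians differed by 0.4 points at the median position and by 5.4 points at most, at position 1198. The same 3 positions were below 50% in both blocks, and position 1 stood at 32.1% over 273 copies in one and at 31.7% over 261 copies in the other. The strand difference was wider in the second block by 2.71 points at the median position. Windows of the long repeat that kept the exact period and windows that did not gave r of 0.993 over 215 positions, and shared 14 positions below 50% of 15 in the former and 14 in the latter. Its blocks of 120 kb and 1500 kb gave r of 0.978 over 214 positions, and shared 13 positions below 50% of 17 in the former and 15 in the latter. Position 3033 had a median of 55.8% over 27 copies in the block of 120 kb and 26.9% over 330 copies in the block of 1500 kb, and position 3041 had 28.5% and 13.1%. These were the 2 largest differences among the 214 positions with at least 20 copies in each block, of which 3 exceeded 10 points.

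Departures of single copies from the mean of their position extended little from copy to copy. The levels of CpGs at the same position 1 copy apart in the short repeat had r of 0.645 over 63523 pairs, and 50 copies apart r was 0.614 over 24452 pairs. After the mean of the position was subtracted, r was 0.100 at 1 copy, 0.0291 at 10 copies and -0.00685 at 50 copies. In the long repeat it was 0.0504 at 1 copy. Neighbouring CpGs up to 30 bp apart had r of 0.322 in the short and 0.325 in the long repeat after this subtraction. Neighbours farther apart, up to 200 bp, had r of 0.135 and 0.175. The part of shared reads in any of these values was not tested.

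The strand difference on ONT varied with the position too, though less of its variance lay between positions than of the ONT level. In the short repeat the median difference over copies was above 0 at 107 of 125 positions and below 0 at 18. At 63 positions the minus row was higher in at least 90% of the copies, and at 5 positions the plus row was. The largest lead of the minus row was at position 1282, where the plus row had a median of 8.7% and the minus row of 90.9% over 516 copies, and PacBio gave 83.6%. Positions 430 and 822 followed, with differences of 69.6 and 68.8 points. At these 3 positions the minus row was higher in 100% of the copies. The largest lead of the plus row was at position 497, with 68.2% on the plus and 30.4% on the minus row and a difference of -36.8 points, where PacBio gave 86.2%. Positions 1042 and 1035 had differences of -23.1 and -22.9 points. In the long repeat the minus row led most at positions 3110, 337 and 1197, by 78.9, 70.2 and 65.9 points, and the plus row led most at positions 2933, 2472 and 1033, with differences of -38.9, -36.1 and -35.5 points. All 6 of these positions had a PacBio median above 80%. Across positions the PacBio level was more closely related to the minus row than to the plus row, with r of 0.658 and 0.401 in the short repeat and 0.621 and 0.322 in the long repeat, and only weakly related to the strand difference, with r of 0.138 and 0.191. The rows themselves had r of 0.297 and 0.199.

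The short and the long repeat shared CpG positions. At an offset of 3735 bp, 59 of the 125 positions of the short repeat coincided exactly with a position of the long repeat, and at an offset of 1895 bp 55 did, while the next best offset gave 20. The stretches of the long repeat that these offsets select, called segments A and B here, lie 1840 bp apart, and the long repeat laid on itself at this offset had 51 coincident positions of 215, against 33 at its next best offset, with r of 0.404 for the PacBio level and 0.673 for the strand difference. Between the coincident positions of the short and the long repeat, the strand difference had r of 0.760 over 59 positions for segment A and 0.733 over 55 positions for segment B. It had the same sign at 45 of 59 and 49 of 55 positions, though it was above 0 at most of them in either repeat, at 49 and 39 of the 59 and at 46 and 42 of the 55. It lay within 10 points at 32 and 34, and parted by more than 20 points at 12 and 11. For the PacBio level r was 0.662 and 0.514. Of the shared positions, 47 of 59 and 37 of 55 had PacBio medians within 10 points of each other. One example, chosen after its values were seen, is position 325 of the short repeat, with 4.76% on the ONT plus and 60.0% on the minus row. Its counterparts in the long repeat, positions 320 and 2220, had 13.3% and 72.2% at the former and 0 and 59.1% at the latter. The median of 0 may include missing values. PacBio gave 88.9%, 91.6% and 87.7% at the 3 positions. Position 1215, also chosen after its values were seen, parted from its counterpart, with a strand difference of 11.9 points against 78.9 points at position 3110, while PacBio gave 94.2% and 93.9%.

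Several low positions coincided with positions of much higher level. Position 1 of the short repeat, at 32.0%, coincided with position 1896 of the long repeat at 83.4%. Position 889, at 43.6%, had counterparts at 52.9% in segment A and 70.6% in segment B. Position 85, at 64.2%, coincided with position 80 at 23.8% and with position 1980 at 46.7%. Position 767 showed how far the segments could part, with 95.9% in the short repeat, 94.6% in segment A and 58.5% in segment B. Differences of more than 20 points were found at 6 of 59 and 9 of 55 shared positions. Low positions also coincided with each other when the long repeat was laid on itself. There position 3033, at 28.6%, met position 1133 at 34.5%, and position 80, at 23.8%, met position 1980 at 46.7%.

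**Figure D5:**
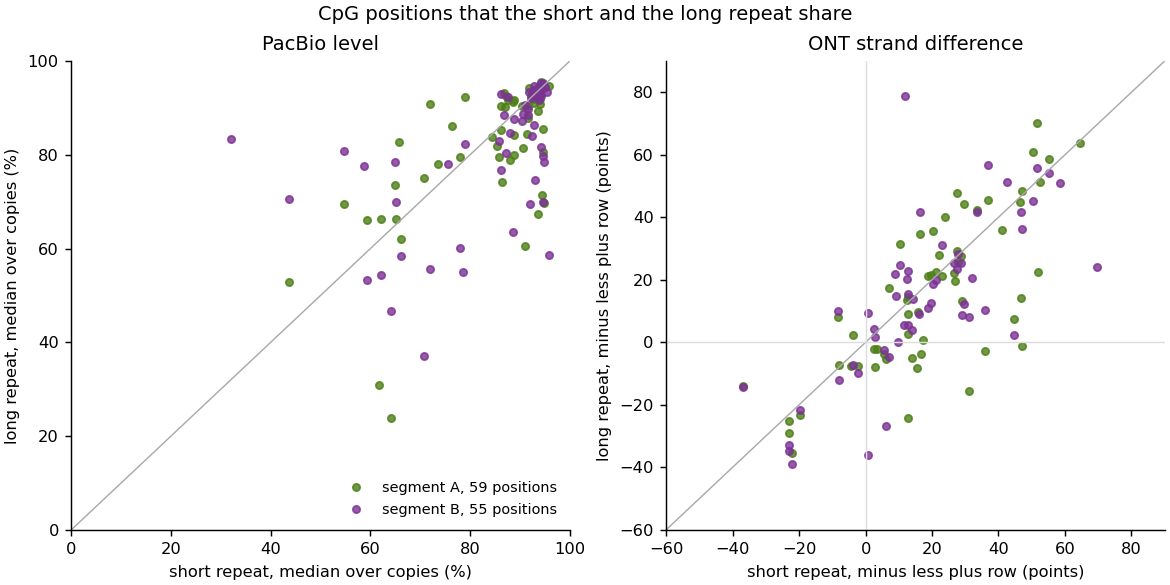
Positions at which the short repeat (x axis) and the long repeat (y axis) both carry a CpG, for the 59 positions of segment A and the 55 of segment B; the line marks equal values. The left panel gives the median PacBio level (percent) and the right panel the median ONT strand difference (points, minus less plus row). On PacBio 6 positions of segment A and 9 of segment B lie more than 20 points off the line, such as position 1 at 32.0% against 83.4%, and on the strand difference 12 and 11 do, such as position 1215 at 11.9 against 78.9 points.

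The ends of the array were compared with its middle. The outermost 100 kb at both ends had a PacBio mean of 80.8%, and the middle 80.8% too. This equality depended on the width, since the difference, ends less middle, was -1.07 points with ends of 50 kb and 1.25 points with ends of 200 kb, and -0.674 points at 100 kb after subtraction of position means. The ends were unlike each other, since the short-arm end lies in the short repeat and the long-arm end in the long repeat. Their differences from the middle were 0.969 points and -1.17 points, in this order. Against the inner windows of its own repeat, the short-arm end was lower on PacBio, with a difference of -1.28 points, and the long-arm end was higher by 0.336 points. On ONT both ends were higher, by 3.21 points together, and by 1.34 and 4.03 points against their own repeat. The outermost 20 kb at the short-arm end differed from the 100 kb that hold it. It had a PacBio mean of 85.2%, which was 2.12 points above the position means. Its plus row had a mean of 60.1% and its minus row 71.8%, so that the strand difference was 11.6 points, the smallest of the 45 short-repeat windows, and after subtraction of position means its plus row was 12.4 points above the position means. The 2 boundaries of the interval were unlike. The 20 kb next to it on the short arm had 19.6 CpGs per kb, a PacBio mean of 69.7% and 4.07% of CpGs with a partner at 1684 bp. The 20 kb next to it on the long arm had 61.0 CpGs per kb, a PacBio mean of 82.5% and 20.5% of CpGs with a partner at 3740 bp. The last 20 kb inside the array had 60.2 CpGs per kb, a PacBio mean of 79.7% and 22.0% of CpGs with such a partner. CpG density and partner share thus hardly changed across the long-arm boundary. The long-arm end compared above is therefore the end of the interval, and not shown to be that of the repeats.

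Along the array no stretch as long as a window had a low mean level. The 20 kb means lay between 74.6% and 85.2%, and the means of 100 kb between 76.7%, from 16225001 to 16325000 in the long repeat, and 84.5%, from 14925001 to 15025000 in the short repeat. After subtraction of position means, the short-repeat windows had an SD of 2.26 points. The lowest window, from 14325001 to 14345000, stood at -6.90 points with a median of 25 reads, and the highest at 2.20 points. The ONT rows of this window were below their position means by less, at -0.356 points on the plus row and -2.27 on the minus row. Long-repeat windows ran from -4.51 points, from 16245001 to 16265000, to 4.68 points, from 16465001 to 16485000. Runs of low sites were short. Of the low sites, 7694 stood alone, and there were 1341 runs of 2, 462 of 3, 88 of 4, 37 of 5, 3 of 6 and 1 of 7. The longest run covered 123 bp from 15282221 to 15282343 in the long repeat, with a mean of 30.6% and levels from 14.4% to 44.8% at a median of 23 reads. Its ONT rows were 28.2% on the plus and 59.0% on the minus row.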

How the data were processed

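CpG methylation was taken from 1 PacBio and 1 ONT library of lung DNA. For PacBio, the authors estimated methylation per CpG in HiFi reads, aligned them and summarised each CpG with both strands combined. The deposited PacBio file gives a modelled level in percent, a read count per CpG and, from the same tool, the estimated counts of reads that are modified or not. For ONT, the authors kept calls beyond their thresholds and deposited a percent value per strand row, without read counts. Both platforms use the study's Y assembly, whose positions are those of ARS-UCD2.0. The files run in opposite directions and were brought to the assembly's direction. The lower row of a pair was taken as the plus strand, which assumes that rows mark the cytosine they describe.

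The PacBio level is the percent column. A CpG was low below 50%. Periods are the distances with the most CpG pairs. Windows of 20 kb with at least 80% of CpGs paired at the first period formed the short repeat. CpGs were placed by the most likely path of offsets to a template, started from the most regular 80 kb, with a penalty of 12 log units per change of offset, and tested on simulated data. Near-identical copies can exchange reads, and the correctness of their placement by the aligners was not tested. Positions were named by a rule, the 5 lowest and 3 highest PacBio medians and the 3 largest strand differences each way per repeat, with the extreme windows of 100 kb and the longest low run. Members, rules and lists were chosen with earlier results of these data known, and the division into repeats after the distances were seen. No genome sequence was used here, so no repeat sequence is given. Values over CpGs or copies of 1 library carry no test, and intervals cover counting error only. Python 3.11.15, numpy 2.4.6 and pandas 2.3.3 were used.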

Additional observations from a re-analysis of the deposited data

Results flagged for a closer look

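The short-arm end of the array moved in opposite directions on the platforms when set against the inner windows of the short repeat. Over the outermost 100 kb the PacBio difference was -1.28 points, from 81.8% at the end and 83.1% inside, and the ONT difference was 1.34 points, from 59.5% and 58.2%. The median depth was 18 reads at this end. The opposite directions depended on the width. Relative to the position means, the outermost 20 kb stood higher on PacBio by 2.12 points and on the ONT plus and minus rows by 12.4 and 2.59 points. Over 50 kb PacBio was lower, at -2.01 points, and the rows were higher, by 6.18 and 2.07 points, while over 200 kb the values were -0.103 points on PacBio and 0.919 and -1.40 points on the rows. This difference was not tested, since each platform has 1 library.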

How the results depend on the processing

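No paired analysis was possible because each platform has 1 library and no result comes from a test. Coverage minimums of 4 reads and the removal of CpGs above 2 times the median depth left every value as it was, since no CpG fell under the first or over the second. With at least 20 reads, the PacBio mean was 80.7%, the ONT mean 55.5%, the strand difference 17.4 points and the difference of edges and middle 0.909 points. From the estimated counts the PacBio mean was 82.5%, the share of low partners 38.3% and the edge difference 0.268 points. Weighting by reads gave 80.8% and an edge difference of 0.171 points. Without ONT rows at exactly 0, at 2930 plus and 61 minus rows, the ONT mean was 56.2% and the strand difference 17.1 points, and the plus or minus row alone gave 46.8% or 64.8%. Low sites numbered 2991 below 30% and 1565 below 20%, with low partners at 21.9% and 14.2%. Partners within 2 bp gave 32.7%. The edge difference, 0.000686 points as reported, changed sign to -1.07 points with edges of 50 kb and was 1.25 points with edges of 200 kb, so it has no settled direction. The causes of these changes were not tested. Settings chosen after seeing the data gave a low-partner share of 42.7% within the short repeat, an edge difference of -0.674 points after subtraction of position means, and a share of variance between positions of 68.5% in the long repeat and, in the short repeat, of 63.3% with at least 20 reads and 59.4% from the estimated counts. Offset penalties of 6 and 24, also chosen then, left the short-repeat share at 60.4%. At 24 reads per CpG, levels of single CpGs are imprecise, and medians over copies carry the position results.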

Other observations

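A stretch of 180 kb that ends in the first long-repeat block, from 14425001 to 14605000, recurred 559800 bp further along, from 14984801 to 15164800. Of its 13268 CpGs, 98.9% had a CpG at this distance. The PacBio means of the stretches were 83.1% and 83.6%, and their strand differences on ONT 20.1 and 23.5 points, at a median of 22 reads in each. Between matched CpGs r was 0.638 for the PacBio level and 0.691 for the strand difference. After subtraction of position means r was 0.0907 for the PacBio level, close to the 0.100 between adjacent copies of the short repeat.

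The megabase on the short-arm side of the array, outside the interval, held 48.1 CpGs per kb, and 24.9% of its CpGs had a partner at 1684 bp. Its median PacBio level was 87.6% and its ONT strand difference 17.1 points. On the long-arm side 4.14% of the CpGs had such a partner, the median PacBio level was 65.1% and the strand difference 4.19 points.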
